A study of Acipenser ruthenus with 35 samples.

Results

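The animal markers exd2 and slc44a3 were followed along the animal-vegetal axis of the sterlet oocyte. The members were chosen by name: the contigs given for exd2 (TRINITY_DN53171_c2_g1_i1_1) and slc44a3 (TRINITY_DN46825_c2_g1_i1_1) in the primer list of the study, and the related contig TRINITY_DN53171_c2_g2_i1_1, which shares an assembly subcomponent with exd2. They make 3 of the 49027 transcripts in the count table. A contig is a transcript assembled from reads, and contigs of 1 subcomponent were grouped by the assembler. They may stand for forms of 1 gene, for gene copies or for separate genes. Whether these contigs share sequence was not checked. Chromosome positions are not given in the sources used here.

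Each oocyte of Acipenser ruthenus was frozen, cut from pole to pole and divided into 5 sections with equal numbers of slices, from the extremely animal section A through the animal B, the central C and the vegetal D to the extremely vegetal E, and every section gave its own RNA-Seq library (TOMO-Seq). Big oocytes (advanced vitellogenic, oocytes 1, 2, 3 and 11, between 1920 and 2100 µm in diameter) gave 17 libraries, and small oocytes (early vitellogenic, oocytes 5, 6, 7 and 8, between 1320 and 1500 µm) gave 18. All were untreated. Only A and B were available for oocyte 11 and only C to E for oocyte 7, which leaves 6 complete oocytes, 3 per stage. The big oocytes came from 1 female and the small oocytes from another, and the libraries of big oocytes were made from more RNA, so that stage, female and RNA input cannot be told apart. The study picked oocytes for sequencing by RT-qPCR, keeping those in which the marker transcripts formed a continuous gradient. The gradients of exd2 and slc44a3 within a stage are therefore given as a description and are not tested.

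Oocytes of fishes and amphibians store RNA that is not spread evenly, and the pole at which a transcript lies decides which cells of the embryo inherit it. The vegetal pole of amphibian oocytes is known for germ plasm transcripts. EXD2 carries an exonuclease domain that degrades nucleic acids in the 3'-5' direction, and in human cells it has been assigned to the resection of broken DNA ends and to mitochondria. SLC44A3 belongs to the choline transporter-like family of membrane proteins, whose best known member carries choline, a precursor of membrane phospholipids, into cells. Nothing in these libraries measures either protein.

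The primer pairs are shown because they tie the gene names to the contigs. They come from the RT-qPCR primer list of the study, whose methods do not name the markers used to pick oocytes. They are written 5′ to 3′ in lower case.
exd2 forward: gtgttggtggaaagacaggaaga
exd2 reverse: gcaccggcaaccccaaa
slc44a3 forward: aggctgctcttcggctatg
slc44a3 reverse: acacctccttccgatcagtc
The exd2 primers are 23 and 17 bases long with 47.8% and 64.7% G and C, and the slc44a3 primers are 19 and 20 bases long with 57.9% and 55.0%. No pair was listed for the related contig. Whether the exd2 primers also match it was not tested, since the contig sequences were not used here.

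Depth ranged from 1816470 to 11348306 counts per library in big oocytes (median 4455798) and from 1653598 to 6817459 in small ones (median 4397616). The levels below are scaled counts, the reads of a transcript divided by a factor for each library (the median of ratios) that makes libraries comparable. Levels of single sections used factors from all libraries, whereas steps, shares and ratios within a stage used factors from the libraries of that stage. The factor corrects for depth and composition and not for transcript length, so that levels are compared between libraries and not between genes. In section A the members rested on many reads (exd2 on between 396 and 3712 per library), but towards the vegetal pole on few (exd2 on between 2 and 36 in C, D and E).

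Transcripts of exd2 were concentrated in the extremely animal section of every oocyte that had a section A library. In big oocytes 1, 2, 3 and 11 the scaled count of exd2 in section A was 1681, 774, 1116 and 1053, and in section B it was 80.4, 59.4, 34.0 and 46.8. All 4 oocytes thus lost most of the signal within a single section. In section C the big oocytes 1, 2 and 3 held 5.92, 10.1 and 3.62, in section D 28.8, 8.18 and 8.48, and in section E 23.7, 6.16 and 11.7. From C to E the level was low and the oocytes differed among themselves as much as the sections did. In small oocytes 5, 6 and 8 the scaled count of exd2 in section A was 2701, 2677 and 2112, and in section B it was 152, 240.4 and 166. Small oocytes had between 24.7 and 36.3 in C, between 17.3 and 27.3 in D and between 23.1 and 31.3 in E. The fall from A to B was 4.39 ± 0.54 on the log2 scale in big (SD, n = 4 oocytes) and 3.76 ± 0.34 in small oocytes (SD, n = 3), and that from B to C was 3.01 ± 0.56 and 2.71 ± 0.16 (SD, n = 3 each). These falls are on the log2(scaled count + 1) scale, which understates them where the level is low. Beyond C the mean steps of exd2 lay between -0.97 and 0.33 and were within 1 SD of 0, apart from that from C to D in small oocytes (0.33 ± 0.32, n = 4). Summed over complete oocytes, section A of big oocytes held 7000 reads of exd2 against 258 in B, a ratio of 21.6 after scaling (exact 95% interval from 19.0 to 24.5). In small oocytes the same ratio was 13.6 (from 12.5 to 14.7). These intervals cover counting error only.

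The related contig had the same kind of profile at fewer reads. Its scaled count in section A was 289.8, 150.1, 192 and 218 in big oocytes 1, 2, 3 and 11, against 645, 575 and 595 in the small oocytes 5, 6 and 8. In section B it was 20.8, 9.31, 8.50 and 20.2 in big and 35.5, 66.7 and 38.1 in small oocytes. As for exd2, each oocyte with a section A library had its peak in A, mostly with under 10% of it elsewhere. Only small oocyte 6 passed 10%, with 66.7 in B against 575 in A. From C to E the related contig was near the limit of detection, with between 0 and 6 reads per library of big oocytes and from 1 to 9 per library of small ones. Section E of big oocytes 2 and 3 held 0 reads. A count of 0 allows for up to 3 counts, so absence cannot be told from a low level there. The fall from A to B was 3.85 ± 0.41 (SD, n = 4) in big and 3.72 ± 0.56 (SD, n = 3) in small oocytes on the same log2 scale.

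The level of slc44a3 fell less steeply and kept more of its reads in the second section. In section A the scaled count of slc44a3 was 379, 226, 271 and 282 in big oocytes 1, 2, 3 and 11, against 532, 514 and 423 in the small oocytes 5, 6 and 8. In section B it was 59.7, 39.6, 21.7 and 35.1 in big and 48.6, 85.5 and 57.6 in small oocytes. The stages overlapped in B, with big oocyte 1 above small oocytes 5 and 8. In C, D and E the scaled count of slc44a3 was between 4.50 and 13.4 in big oocytes and from 5.77 to 22.9 in small ones, on between 3 and 26 reads per library. The fall from A to B was 2.93 ± 0.49 (SD, n = 4) in big and 2.95 ± 0.43 (SD, n = 3) in small oocytes, and that from B to C was 2.00 ± 0.23 and 1.98 ± 0.48 (SD, n = 3 each). Over complete oocytes the ratio of A to B was 7.35 in big (exact 95% interval from 6.30 to 8.62) and 7.73 in small oocytes (from 6.68 to 8.98), again covering counting error only.

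**Figure D1:**
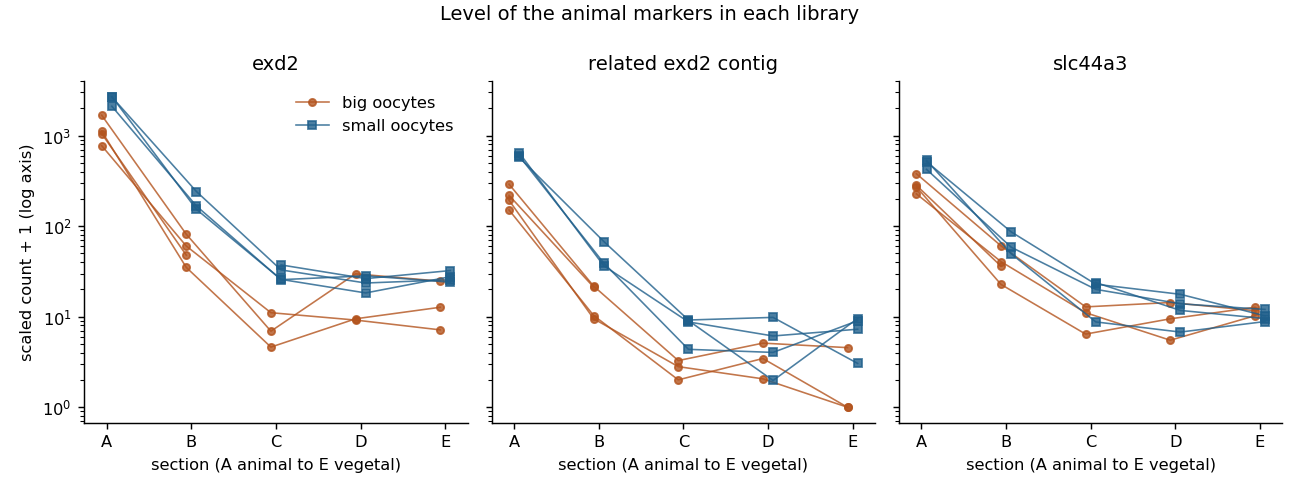
Scaled count plus 1 (log axis) of exd2, the related contig and slc44a3 against section, from A (animal) to E (vegetal). Each oocyte has 1 line, with circles for big and squares for small oocytes. Every complete line falls from A to C by over 10-fold and stays low beyond C, and for exd2 the small oocytes lie above the big ones in A, B and C.

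The share of each transcript in section A sums up these profiles. The scaled counts of the 5 sections of an oocyte were added, so that each section weighed the same, and an even transcript would have 20% in each. The RNA yield of each section was not used, so a share compares levels and is not the fraction of an oocyte's molecules. The share of exd2 in A was 92.4%, 90.3% and 95.1% in big oocytes 1, 2 and 3, against 92.4%, 89.3% and 89.8% in the small oocytes 5, 6 and 8. The related contig had 90.5%, 92.2% and 94.4% in the big and 92.2%, 87.0% and 91.9% in the small oocytes. The share of slc44a3 was 80.0%, 78.2% and 85.2% in the big and 88.4%, 79.4% and 80.8% in the small oocytes. For all 3 members the stages overlapped. The mean share of slc44a3 in section B was 11.0% in big oocytes against 4.73% for exd2. Sections are slices of a near-sphere and the central ones hold more of it. When sections were weighted by the volume of equal slices of a sphere, the mean share in A was 85.0% and 80.6% for exd2 in big and small oocytes, 83.7% and 80.4% for the related contig, and 66.1% and 67.8% for slc44a3.

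**Figure D2:**
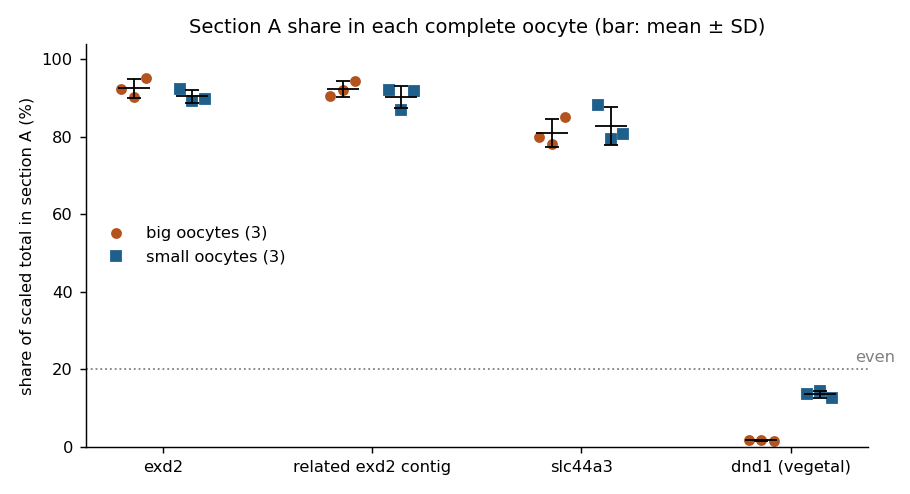
Share of the scaled total in section A (percent, y axis) in each complete oocyte for exd2, the related contig, slc44a3 and the vegetal marker dnd1, with 3 big (circles) and 3 small oocytes (squares), the mean and SD as bars and the even share of 20% as a dotted line. The 3 animal markers lie between 78.2% and 95.1% and dnd1 between 1.54% and 14.4%.

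Few transcripts of the oocyte were as animal as these. Among the 32289 transcripts examined in big oocytes, 8 had a higher mean share in A than exd2, 9 a higher share than the related contig and 20 a higher share than slc44a3. Among 30274 in small oocytes, these numbers were 2, 3 and 9. The counts include members that rank above one another and c2_g2_i2, a sparse contig of the same subcomponent taken up below. Any transcript with a mean scaled total over 20 could enter, so a few reads can set a share. The median over all transcripts was 19.6% (big) and 19.9% (small), close to an even spread. A share over 50% was seen for 390 transcripts in big and 115 in small oocytes. By the gradient, in which the mean log2 level of A and B is subtracted from the mean of D and E, exd2 had -4.24 ± 0.21 (SE) in big and -4.87 ± 0.10 in small oocytes, the related contig -5.05 ± 0.28 and -4.98 ± 0.23, and slc44a3 -3.52 ± 0.17 and -4.14 ± 0.17, from edgeR with the oocyte as a block. The value of the related contig in big oocytes depended on section E, with 3 reads in all, and ran from -6.54 without oocyte 1 to -4.48 without oocyte 3. A more negative gradient than that of exd2 was found for 17 of 32291 transcripts in big and 6 of 30277 in small oocytes. For slc44a3 these numbers were 33 and 8. Leaving out 1 oocyte changed these counts, for exd2 to 34 without big oocyte 2, 27 without big oocyte 3 and 9 without small oocyte 6, and for slc44a3 to 64 without big oocyte 2 and 13 without small oocyte 7. All of these ranks describe oocytes that were picked for marker gradients.

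**Figure D3:**
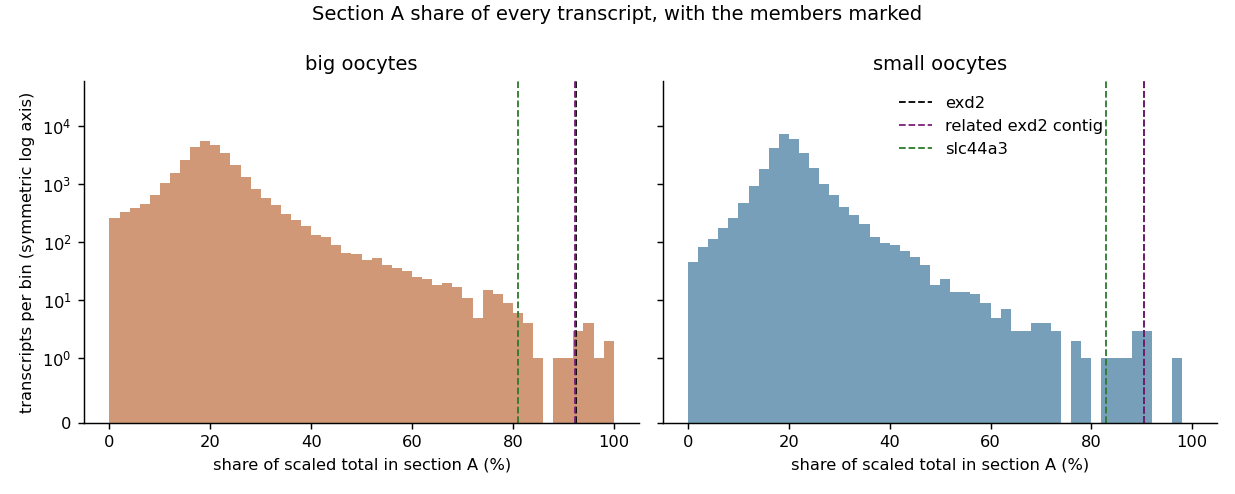
Number of transcripts (symmetric log axis) by mean share of the scaled total in section A (percent, bins of 2) in big and small oocytes, with dashed lines at exd2, the related contig and slc44a3. Most transcripts lie near 20% and the members lie at the far right, with exd2 and the related contig at nearly the same place.

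Within the same oocytes exd2 was more restricted to section A than slc44a3. These oocytes were picked for marker gradients and pooled over both stages and females, so the tests here cover only such oocytes. The difference in share was 9.57 ± 3.02 percentage points (SD, n = 6), and exd2 was higher in 6 of 6 oocytes (two-sided exact permutation test by sign flips, p = 0.03125, the smallest it can give, and 0.0469 after adjustment over the 3 pairs of members). It ranged from 4.06 points in small oocyte 5 to 12.5 points in big oocyte 1. The related contig exceeded slc44a3 by 9.38 ± 3.45 points in 6 of 6 oocytes (exact p = 0.03125, adjusted 0.0469). Both comparisons used the same shares of slc44a3, so the second is not separate support. Between exd2 and the related contig the difference was 0.19 ± 1.88 points, with exd2 higher in 4 of 6 oocytes (exact p = 0.6875). Without any 1 oocyte the smallest p that the test can give is 0.0625, while the differences from slc44a3 stayed at 8.45 points or above.

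The next question was whether the members changed with the growth of the oocyte. In section A all 3 were lower in big than in small oocytes, and the stages did not overlap. How many of all transcripts separate the stages in this way was not counted, here or in section B. By edgeR's quasi-likelihood test with Benjamini-Hochberg adjustment over 33139 transcripts, exd2 differed by -1.10 ± 0.21 (log2 big minus small ± SE, adjusted p = 1.9e-04), the related contig by -1.49 ± 0.20 (adjusted p = 1.01e-06) and slc44a3 by -0.75 ± 0.19 (adjusted p = 0.00288). At the threshold of 0.1, 35.4% of all transcripts were called in section A and 18.6% were called lower in big oocytes. The model took the 35 libraries as independent, although sections share oocytes. Small oocytes had 2.16 times the mean scaled count of exd2 in A, 2.85 times that of the related contig and 1.69 times that of slc44a3. Among the big oocytes the order was nearly shared, with oocyte 1 highest and oocyte 2 lowest for each of the 3 members. The scaled count of exd2 in A varied 2.17-fold among big oocytes and 1.28-fold among small ones.

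Further along the axis the differences were tested at lower counts. In section B exd2 differed by -1.71 ± 0.28 (edgeR, adjusted p = 3.3e-05) and the related contig by -1.69 ± 0.33 (adjusted p = 1.7e-04), without overlap of the stages, where 33.2% of all transcripts were called. For slc44a3 in B the difference was -0.67 ± 0.25 (adjusted p = 0.0447), which was -0.49 without big oocyte 3 (adjusted p = 0.178), -0.41 without small oocyte 6 (adjusted p = 0.355) and -0.63 over complete oocytes alone (adjusted p = 0.128). In section C, where 35.6% of transcripts were called, exd2 differed by -2.12 ± 0.60 (adjusted p = 0.00873) on 25 reads in all big oocytes. The related contig differed there by -1.81 ± 0.79 (adjusted p = 0.0861) on 7 reads, a call that was lost without big oocyte 2 or 3, small oocyte 5, 6 or 7, or both incomplete oocytes (adjusted p between 0.110 and 0.169), and slc44a3 by -0.85 ± 0.42 (adjusted p = 0.137). The value of slc44a3 in C passed the threshold without big oocyte 1 (adjusted p = 0.0749) or small oocyte 5 (adjusted p = 0.0489).

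In sections D and E, where 45.2% and 45.8% of all transcripts were called, exd2 differed by -0.78 ± 0.49 (edgeR, adjusted p = 0.222) and -0.90 ± 0.55 (adjusted p = 0.206). Big oocyte 1 held 28.8 and 23.7 of exd2 there, above the small oocytes in D and within their range in E, and without it the differences were -1.45 (adjusted p = 0.00507) and -1.29 (adjusted p = 0.0167). The related contig differed by -0.80 ± 0.72 in D (adjusted p = 0.409). In E it differed by -2.66 ± 1.01 (adjusted p = 0.0349), which rested on 3 reads in big oocytes, all in oocyte 1, against 17 in small ones, and the call was lost without big oocyte 3 (adjusted p = 0.318) or small oocyte 8 (adjusted p = 0.136). For slc44a3 the differences were -0.54 ± 0.45 in D (adjusted p = 0.365; 0.0839 without big oocyte 1) and 0.22 ± 0.50 in E (adjusted p = 0.770).

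**Figure D4:**
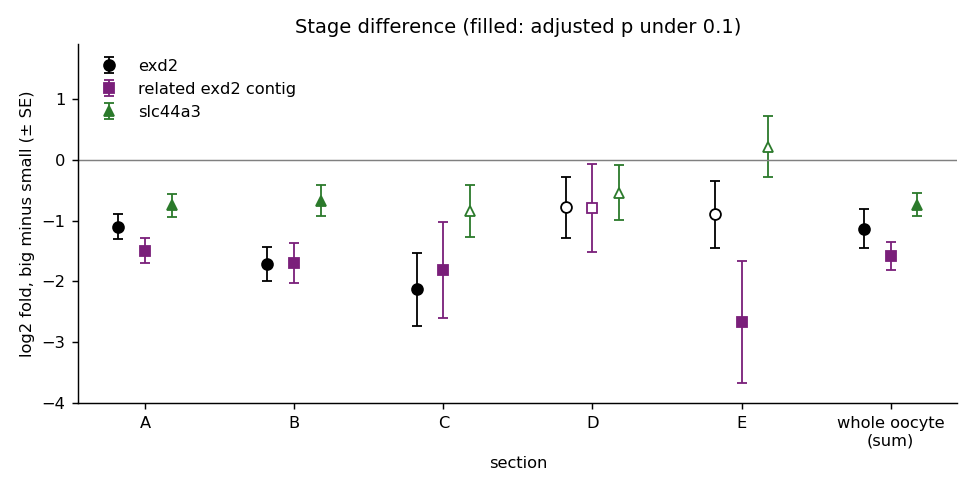
Difference between stages (log2, big minus small, y axis, error bars SE) of exd2, the related contig and slc44a3 in sections A to E and in the sum over the whole oocyte, filled where the adjusted p is under 0.1. All 3 members are below 0 in A, in B and in the sum, and the error bars are wider in C, D and E than in A and B, with slc44a3 above 0 in E.

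Summed over the 5 sections of complete oocytes, all 3 members were lower in big oocytes. These totals were scaled once more across oocytes, so they are not plain sums of the section levels above. The scaled total of exd2 was 1814, 859 and 1175 in big oocytes 1, 2 and 3, against 2991, 3061 and 2397 in the small oocytes 5, 6 and 8, a difference of -1.13 ± 0.32 (edgeR, log2 ± SE, adjusted p = 0.0424). The related contig had 319.6, 164 and 203 in the big and 716, 675 and 660.1 in the small oocytes, a difference of -1.58 ± 0.23 (adjusted p = 0.00189). The total of slc44a3 was 473, 290.4 and 318 in the big and 616, 661 and 533 in the small oocytes, a difference of -0.74 ± 0.19 (adjusted p = 0.0159). The stages did not overlap for any of the 3, and how often this holds for other transcripts was not counted. Totals moved between stages for much of the table, with 57.5% of 33149 transcripts called and 28.6% lower in big oocytes. The call of exd2 was lost without big oocyte 3 (adjusted p = 0.119), small oocyte 5 (adjusted p = 0.104) or small oocyte 6 (adjusted p = 0.111). With unscaled counts, in which a deeply sequenced section weighs more, the differences were -0.39 for exd2 (adjusted p = 0.651), -0.84 for the related contig (adjusted p = 0.263) and -0.13 for slc44a3 (adjusted p = 0.843). Scaled counts measure the composition of the RNA, so a lower level can reflect fewer copies of the transcript or more of other RNA, and these cannot be told apart.

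The shape of the profile was compared next, since a lower level need not change the distribution. Oocytes of both stages were picked for continuous marker gradients, so a lack of calls cannot show that the profile stayed the same. By edgeR's test of the interaction of stage and section, in which 29% of all transcripts were called, no member passed the threshold (adjusted p = 0.399 for exd2, 0.799 for the related contig and 0.672 for slc44a3). The sections of an oocyte come from 1 cell, and with the oocyte as a block the adjusted p of exd2 was 0.0453, that of the related contig 0.571 and that of slc44a3 0.309, while 31.5% of transcripts were called. The call for exd2 thus depended on the block. The difference in gradient, positive where the profile of big oocytes is less animal, was 0.56 ± 0.42 for exd2 (adjusted p = 0.362), -0.14 ± 0.46 for the related contig (adjusted p = 0.877) and 0.55 ± 0.38 for slc44a3 (adjusted p = 0.314), where 34.1% of transcripts were called. With the block these values were 0.64, -0.05 and 0.62, with adjusted p of 0.113, 0.913 and 0.130. None of the 4 steps between neighbouring sections differed between stages past the threshold for any member, in tests that called 5.19% of transcripts for A to B, 1.22% for B to C, 1.85% for C to D and 1.45% for D to E. For exd2 the step from A to B was larger in big oocytes by 0.61 ± 0.35 (adjusted p = 0.455). The step from C to D differed by -1.34 ± 0.81 (adjusted p = 0.659).

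The ratio between the related contig and exd2 was also compared between stages. The log2 ratio of the scaled total of the related contig to that of exd2 was -2.51, -2.40 and -2.53 in big oocytes 1, 2 and 3, against -2.06, -2.18 and -1.86 in the small oocytes 5, 6 and 8. The stages did not overlap, and the mean difference was -0.44 (two-sided exact permutation test, p = 0.1, the smallest that 3 against 3 oocytes can give). In section A alone, where oocyte 11 could be added, the ratio was -2.43 ± 0.13 in big (SD, n = 4) and -2.04 ± 0.20 in small oocytes (SD, n = 3), a difference of -0.39 (exact p = 0.0286, the smallest that 4 against 3 can give). The section A library of oocyte 11 was atypical, with the lowest depth of the big oocytes. Its 10 most abundant transcripts held 10.2% of counts, against 3.74%, 4.19% and 3.04% in section A of oocytes 1, 2 and 3. The related contig took 15.0% of the reads of both contigs in section A of big oocytes (Wilson 95% interval from 14.2% to 15.7%, counting error only) and 19.4% in small oocytes (from 18.5% to 20.4%). In section B its percentage was 19.9% in big (from 16.2% to 24.2%) and 20.1% in small oocytes (from 17.5% to 23.0%). If the contigs share sequence, they can exchange reads, which the authors' kallisto run divides by estimate, so these are ratios of assigned reads. Their use as ratios of molecules was not tested. With the reads of both contigs added together the difference in section A was -1.17 (edgeR, adjusted p = 1.0e-04).

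Not every contig of the component was animal. The component DN53171 has 8 contigs, of which 3 belong to subcomponent c2 and 5 to c0 and c1. The remaining contig of c2, c2_g2_i2, was animal too, with a section A share of 94.3% ± 6.37 (SD, n = 3) in big oocytes and 88.1% ± 4.67 (SD, n = 3) in small ones. It was sparse, with 282 reads in section A of the 4 big oocytes, 2 in B, 0 in C and D and 7 in E. Its level in A was lower in big oocytes by -1.62 ± 0.35 (edgeR, adjusted p = 9.4e-04) and its total by -1.75 ± 0.23 (adjusted p = 1.1e-04; 0.117 with unscaled counts). Of the other contigs, c0_g1_i1_2 held between 0 and 2 reads per library. The remaining 4 showed no concentration in A, with between 18.7% and 22.4% of the scaled total in section A of big and between 19.0% and 24.5% of small oocytes. TRINITY_DN53171_c1_g1_i1_1, the most abundant of these in scaled counts, held 21.7% in A of big and 19.0% of small oocytes. Its total was lower in big oocytes by -0.27 ± 0.06 (edgeR, adjusted p = 0.00162), against between -1.75 and -1.13 for the c2 contigs. Whether these differences differ was not tested. Its gradient differed by -0.38 ± 0.10 (adjusted p = 0.00245). Grouping into a component is done by the assembler, and a shared component does not show that contigs belong to 1 gene.

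**Figure D5:**
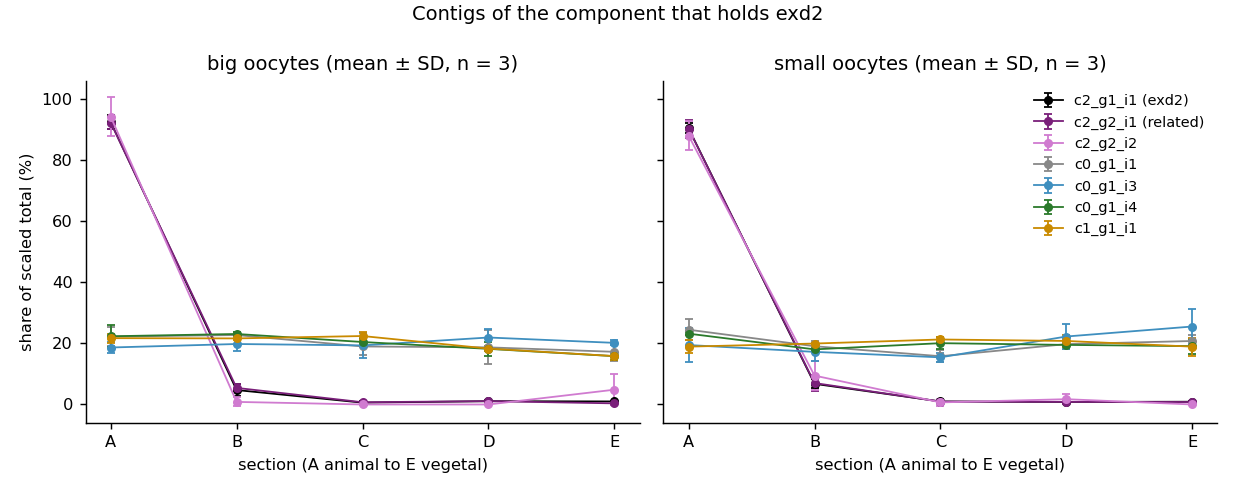
Mean share of the scaled total (percent, y axis, error bars SD, n = 3 oocytes) by section for 7 contigs of the component that holds exd2, in big and small oocytes. The 3 contigs of subcomponent c2 hold 88.1% to 94.3% in section A, and the means of the 4 contigs of c0 and c1 lie between 15.4% and 25.6% in every section.

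Across the 35 libraries the members followed each other closely. Pearson's r of log2 CPM was 0.98 between exd2 and the related contig, 0.97 between exd2 and slc44a3 and 0.96 between the related contig and slc44a3. These are descriptions over libraries that share oocytes and sections. How much of their size comes from the strong fall from A to C was not tested. Likeness was searched among 14176 transcripts with a mean scaled total of at least 200 per oocyte in both stages, so sparser transcripts could not be found. Among these, the 2 most like exd2 outside its component were TRINITY_DN52765_c1_g2_i4_1 (r = 0.98) and TRINITY_DN51220_c0_g2_i3_1 (r = 0.98), and the same 2 were nearest to the related contig (r = 0.96 and 0.97). For slc44a3 they were TRINITY_DN53791_c1_g1_i1_1 (r = 0.97) and TRINITY_DN54814_c1_g1_i5_1 (r = 0.96). No gene names are given for these 4. Their profiles and stage differences follow in part from the choice, which used levels in these same libraries of both stages. The 4 are therefore given as a description. They were animal too, but less so than the members, with 55.4%, 75.6%, 56.6% and 46.4% of the scaled total in section A of big oocytes in the order named and 51.7%, 70.4%, 69.8% and 45.7% in small oocytes. Their totals were lower in big oocytes by -0.55 ± 0.09, -0.65 ± 0.18, -0.91 ± 0.10 and -0.32 ± 0.07 (edgeR, adjusted p between 2.1e-04 and 0.0339), and each of these calls was lost with unscaled counts (adjusted p between 0.241 and 0.828). At the threshold of 0.1, totals of 28.6% of all transcripts were called lower in big oocytes.

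The vegetal marker dnd1 (TRINITY_GG_79323_c2_g1_i2_1), which encodes an RNA-binding protein that germ cells require, served as the opposite reference. It comes from the same primer list, and the study checked animal and vegetal markers when picking oocytes. Its profile is therefore also a description and is not tested. The share of dnd1 in section A was 1.72% in big and 13.6% in small oocytes. Its total moved the other way from those of the animal markers, higher in big oocytes by 1.12 ± 0.13 (edgeR, log2 ± SE, adjusted p = 0.00100). Of all transcripts, 28.9% had a total called higher in big oocytes and 28.6% a total called lower. Whether the direction goes with the pole was not tested.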

How the data were processed

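The values are counts and signals of 35 section libraries from 8 oocytes. The authors trimmed reads with Trimmomatic, removed ribosomal and mitochondrial reads, and pseudoaligned the rest to a species transcriptome assembled de novo, with kallisto 0.43.1. The deposited values are its estimated counts per transcript, stored as whole numbers (100% of values). The deposited normalized signal, made by the authors with DESeq2 size factors, gave back the same whole counts for 100% of values (tolerance 1e-04) and served only for this check.

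The counts were tested with edgeR 4.0.16 in R 4.3.3 (quasi-likelihood test, robust dispersions, scaling by the median of ratios). Benjamini-Hochberg adjustment ran over all transcripts with a scaled total over 20 per oocyte, with the threshold of the study, 0.1. Stage models held the 10 groups of stage and section without an oocyte block. Totals and shares used the 6 complete oocytes. Steps used a pseudocount of 1, and correlations log2 CPM with a prior count of 2. Scripts were tested on simulated counts.

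The oocyte number pairs sections, since they come from 1 cell: deviations from the group means correlated with a median of 0.20 in big and 0.13 in small oocytes within an oocyte, and of -0.05 and -0.04 between oocytes. Replicate libraries of each group differed beyond sampling noise, most of all the section A library of big oocyte 11 from the others of its group. Oocytes of a stage share a female, so no p-value covers the spread between fish. Stage models took the 35 libraries as independent, so their p-values do not measure the spread between oocytes alone. The sign-flip tests pooled both fish.

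Members and lists were chosen with earlier results of these data known. Named besides the members were the other contigs of their assembly components, dnd1 and, for each member, the 2 transcripts with the highest correlation. Alternatives were TMM, library totals, DESeq2 1.42.0 (no independent filtering), no filter, a filter of 200 and sphere volume weights. Further ones were unscaled counts, an oocyte block, exd2 summed with the related contig, and leaving out each oocyte. The use of complete oocytes alone was added after seeing the data. The RefSeq table of 80041 genes held 0 entries named exd2 or slc44a3.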

Additional observations from a re-analysis of the deposited data

Results flagged for a closer look

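One value stood far from the others of its group. In section C of small oocytes the related contig had scaled counts of 7.76, 8.19 and 8.07 in oocytes 5, 6 and 7 but 3.36 in oocyte 8, which rested on 3 reads. It was the only such value among 15 sets of 4 oocytes examined for the 3 members. By its nominal level the rule picks out about 1 set in 20 by chance, a rate that was not measured here. In the same library exd2, on 22 reads, was nearly level with the next lowest of the 4, with 24.7 against 24.8, 31.9 and 36.3 in oocytes 5, 6 and 7. For slc44a3 this library was not the lowest, with 19.1 against 7.76 in oocyte 5.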

How the results depend on the processing

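In section A the 3 members were lower in big oocytes and past the threshold under every alternative run, as were exd2 and the related contig in B. Of 874 alternative values, 800 kept their direction and side of the threshold or stayed within 1 SD. The oocyte block gave an adjusted p of 0.0453 for the profile of exd2 and changed no other call. Totals from unscaled counts did not pass, at -0.39 for exd2, -0.84 for the related contig and -0.13 for slc44a3, and the cause was not tested. Volume weights moved the share in A to 85.0% and 80.6% for exd2, 83.7% and 80.4% for the related contig, and 66.1% and 67.8% for slc44a3, in big and small oocytes. The ratio of the related contig to exd2 gave -0.39 in section A alone and passed 0.05 there, where 1 more oocyte was available. For the related contig, the gradient difference was 0.49 with summed contigs and the step from B to C -0.10 over complete oocytes alone, both with the sign turned and far from the threshold.

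Leaving out each oocyte in turn, the total of exd2 ran from -1.47 to -0.91, the share differences from 8.99 to 10.7 points (exd2 minus slc44a3), from 8.45 to 10.5 (related contig minus slc44a3) and from -0.24 to 0.65 (exd2 minus related contig), and the gradient of the related contig in big oocytes from -6.54 to -4.48. Signs turned for differences that were not called: the gradient difference of the related contig (-1.52 to 0.46), its steps from A to B (-0.19 to 0.40) and B to C (-0.084 to 0.33), the steps of exd2 from B to C (-0.029 to 0.69) and D to E (-0.16 to 0.44), the step of slc44a3 from A to B (-0.31 to 0.15), and the total (-0.0091 to 0.23) and gradient difference (-0.35 to 0.045) of TRINITY_DN53171_c0_g1_i3_1. With library totals the median gradient difference of all transcripts was -0.11. Few reads beyond section B limit every statement there.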
